A study of Mus musculus with 2 samples.

Results

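Tumour cells can restrain an immune response with ligands on their surface and with secreted factors. Here 10 genes of this kind were followed between B16F1-GFP-D, a cultured melanoma line derived from a dormant cell, and its maternal line. These were the checkpoint ligands *Cd274*, *Pdcd1lg2*, *Cd276* and *Cd80*, the anti-phagocytic ligand *Cd47*, the adenosine-producing enzyme *Nt5e*, and the secreted factors *Tgfb1*, *Il10*, *Csf1* and *Csf2*. They were picked from the arrays by gene name, out of 27790 genes or transcripts, and were read by 15 probes in 51 spots. Of the 10 genes, 5 were detected, namely *Cd274*, *Cd276*, *Cd47*, *Tgfb1* and *Csf1*. None of these 5 differed by 2-fold between the lines, and the other 5 were too close to background to compare. The difference seen with most probes was that of *Cd47*, which was lower in B16F1-GFP-D with each of its 4 probes on both arrays, by a log2 ratio between -0.58 and -0.12.

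Both lines derive from the murine melanoma B16F1, carry a GFP plasmid, and were grown without treatment in the same serum-containing medium. B16F1-GFP-M is the maternal line. B16F1-GFP-D is a clonal line grown from GFP-positive cells that had been sorted, a year after challenge, from pooled organs of tumour-free mice, both control and vaccinated. It stands for 1 colony only, so that a feature of that clone cannot be told apart from a feature of dormancy. The vaccine cells of the study expressed GM-CSF, the product of *Csf2*, but neither of the lines on the arrays was made to do so. RNA of both lines was hybridised to 2 Agilent 2-colour arrays on 1 slide, with B16F1-GFP-M in Cy5 on array 1 and B16F1-GFP-D in Cy5 on array 2. Nothing in the labels describes separate cultures, so there is 1 replicate per line and no test between the lines. Precision is limited by having 2 arrays. A value is followed by the standard deviation (SD) between the 2 arrays, which holds dye effects but no variation between cultures.

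PD-L1 and PD-L2, the products of *Cd274* and *Pdcd1lg2*, bind PD-1 on T-cells and dampen their activation, and *Cd274* is known to be induced by interferon-γ. *Cd276* encodes B7-H3, a further B7 family ligand, and *Cd80* encodes B7-1, which engages either the costimulatory receptor CD28 or the inhibitory receptor CTLA-4. CD47 signals to SIRPα on macrophages and restrains phagocytosis. CD73, from *Nt5e*, turns AMP outside the cell into adenosine, while TGF-β1 and IL-10 are suppressive cytokines and *Csf1* and *Csf2* encode the myeloid growth factors M-CSF and GM-CSF.

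A probe was called detected when most of its spots were well above background, by the flags of the scanner software, and when this held on both arrays for 1 of the lines or for both. By this rule 12539 genes were detected, or 45.1%. Across the 4 channels, between 44.1% and 60.7% of all spots were well above background, more in Cy5 than in Cy3 on each array, and no spot was saturated. Ratios are given on the log2 scale, with B16F1-GFP-D divided by B16F1-GFP-M, after background correction and loess normalization, and a gene is read from its brightest probe. Of the melanocyte markers 10 of 10 were detected in both lines. Of the leukocyte markers 4 of 14 were detected, of the fibroblast markers 2 of 8 and of the endothelial markers 1 of 6. Those detected were *Cd3e*, *Lyz2*, *Cd68* and *Coro1a* for leukocytes, *Col1a2* and *Postn* for fibroblasts and *Vwf* for endothelium. Among those not detected were the leukocyte antigen *Ptprc*, the fibroblast collagen *Col1a1* and the endothelial *Pecam1*. The summed raw signal of the 4 leukocyte genes had a log2 of 8.51 for B16F1-GFP-D and of 8.36 for B16F1-GFP-M in Cy3, and of 9.97 and 10.1 in Cy5. According to the paper, the GFP-positive cells were cloned after expansion because host cells were still present after sorting. Whether any host cells remained was not tested here. Fewer cells of a type and less RNA per cell cannot be told apart from such signals.

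*Cd274* was detected in both lines on both arrays. Its spot was 6.59 times as bright as the local background in B16F1-GFP-D and 5.10 times in B16F1-GFP-M on array 1, and 4.23 and 6.27 times on array 2. The ratio to background was therefore higher in Cy3 each time, whichever line that channel held. After normalization, the log2 ratio was -0.014 on array 1 and -0.0086 on array 2, with a mean of -0.011 ± 0.0038 (SD of 2 arrays). Of all detected genes, 97.7% had a mean further from 0. The mean was smaller in size than the pooled SD of 0.13 of the 4067 detected probes of similar brightness. The probe lies on the forward strand of chromosome 19, from 29462363 to 29462422 of the mm9 genome. *Pdcd1lg2*, on the same chromosome from 29545026 to 29545085, was not detected by the rule. It was well above background only in B16F1-GFP-M on array 1, where its spot was 1.51 times the background, and B16F1-GFP-D on array 2 had 1.46 times. In Cy3, not well above background, the ratios were 2.23 for B16F1-GFP-D and 1.92 for B16F1-GFP-M. The log2 ratios of *Pdcd1lg2* were 0.0099 and 0.12.

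*Cd276* was the other B7 ligand above the detection limit. B16F1-GFP-M was well above background on both arrays, at 2.22 and 2.68 times the background. B16F1-GFP-D had 2.23 times on array 1, not well above background, and 1.75 times on array 2, which was. The log2 ratios were -0.32 and -0.10, with a mean of -0.21 ± 0.15 (SD of 2 arrays). The size of this value depended on the processing. The mean was -0.55 with an offset of 0 in the background correction, -0.20 with no background subtraction and -0.79 in the scanner software's own ratio, which also scales the dyes in another way. It was below 0 in all 9 alternatives that give a ratio, though some of these leave the value unchanged by construction or repeat another. The array files place this 60-base probe on the reverse strand of chromosome 9 over 44 bases only, from 58372107 to 58372150 of mm9.

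*Cd80* was read by 2 probes on chromosome 16, and neither was detected. The brighter, from 38474174 to 38474233, was well above background in Cy5 on each array, which is B16F1-GFP-M on array 1 with 2.22 times the background and B16F1-GFP-D on array 2 with 1.88 times. It was not in Cy3 on either, although the ratio to background was higher there, at 2.59 times for B16F1-GFP-D and 2.78 times for B16F1-GFP-M. Its log2 ratios had opposite signs, -0.17 and 0.018. The second probe was not well above background in any channel, with log2 ratios of 0.065 and -0.093. *Pdcd1lg2* and *Csf2* were well above background in 1 reading each, that of B16F1-GFP-M in Cy5 on array 1, and not in B16F1-GFP-D in Cy5 on array 2 or in Cy3. Over the 15 probes, 20 of the 30 readings in Cy5 and 15 of the 30 in Cy3 were well above background, and 3 probes were so in Cy5 but in no Cy3 reading. For the *Cd80* probe the flags followed the dye and not the line. For *Pdcd1lg2* and *Csf2* they rest on 1 reading, and no difference between the lines was read from them.

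**Figure D1:**
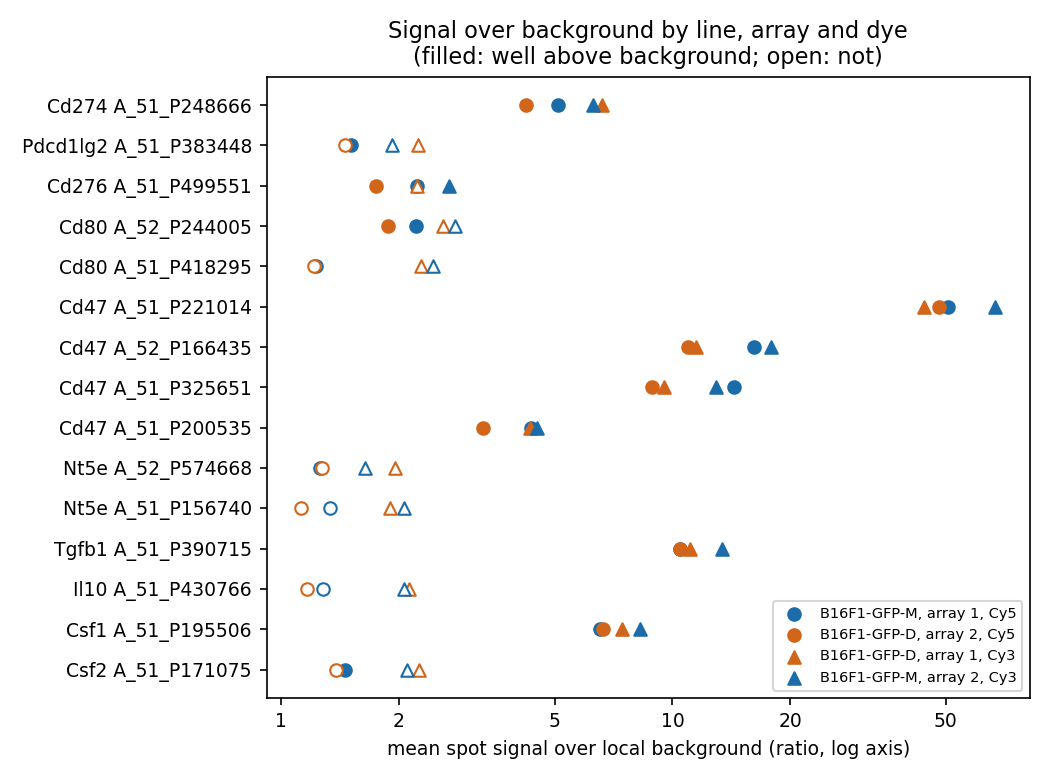
Mean spot signal over local background (ratio, log axis) of the 15 probes, by line (colour) and dye (shape), with filled points where most spots were well above background. *Cd47*, *Tgfb1*, *Csf1* and *Cd274* are filled in all 4 channels, and the brighter *Cd80* probe, *Pdcd1lg2* and *Csf2* are filled in Cy5 only, the last 2 on array 1 only.

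*Cd47* was read by 4 probes, with signals of 3.28 to 66.8 times the background, all detected in both lines on both arrays. The first bases of the 4 oligonucleotides on the arrays are shown because they gave different sizes of the same difference. Each is 60 bases long and the first 30 are printed, as the array files list them, on the forward strand of chromosome 16.
A_51_P221014: tatccaacctcctaggaataggtgaaggga
A_52_P166435: gcatagcaattaaaggtatgctatttgtca
A_51_P325651: gcagaggcgtggcatctacagaagagcaga
A_51_P200535: agagttttcaaaaatctctttactgccaca
The files assign the first to the RefSeq transcript of *Cd47*, where it spans 49906910 to 49911025 of mm9, and so bridges a gap in the genome. The others are assigned to an Ensembl transcript and lie downstream, A_51_P325651 from 49912306 to 49912365, A_51_P200535 from 49914450 to 49914509 and A_52_P166435 from 49914884 to 49914943. Their GC content ranged from 35.0% to 45.0%.

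On array 1, the brightest *Cd47* probe, A_51_P221014, had 44.0 times the background in B16F1-GFP-D and 50.7 times in B16F1-GFP-M. On array 2 these were 47.9 and 66.8 times. Its log2 ratios of -0.30 and -0.26 gave a mean of -0.28 ± 0.034 (SD of 2 arrays), or 1.21-fold lower in B16F1-GFP-D. A_52_P166435 had -0.58 and -0.49, with a mean of -0.53, and A_51_P325651 had -0.71 and -0.44, with a mean of -0.58, or 1.49-fold lower. A_51_P200535, the dimmest, had -0.15 and -0.095, with a mean of -0.12. All 8 values of a probe on an array were below 0, and none reached -1. For the brightest probe the difference was larger than its SD between the arrays and larger than the pooled SD of 0.15 of 1775 probes of similar brightness. The dimmest probe stayed within the pooled SD of 0.13 of probes of its brightness. The 4 means had an SD of 0.22 among themselves and a median of -0.41. A shift of this size was common: 49.6% of the detected genes had a mean further from 0 than the brightest *Cd47* probe. With median centring in place of loess, which leaves an effect of the dye, each of the 4 probes was below 0 on array 1 and above 0 on array 2, and their means stayed below 0.

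**Figure D2:**
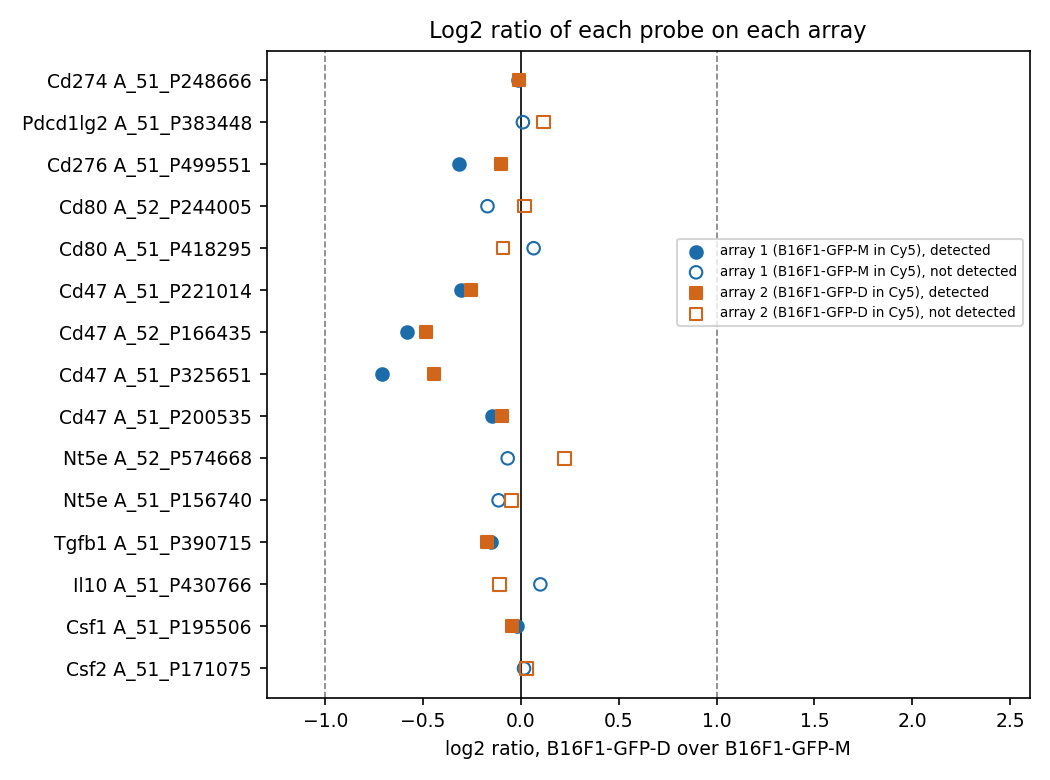
Log2 ratio (horizontal axis, B16F1-GFP-D divided by B16F1-GFP-M) for each of the 15 probes on array 1 (circles) and array 2 (squares), filled where detected, with dashed lines at 2-fold. No point reaches a dashed line, and the 4 *Cd47* probes lie left of 0 on both arrays.

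The partners of CD47 were examined with it. Its receptor *Sirpa*, best known from macrophages, was detected in both lines, with log2 ratios of -0.80 and -0.82 and a mean of -0.81 ± 0.015 (SD of 2 arrays), or 1.75-fold lower in B16F1-GFP-D. This was its brightest probe, and the means of its 3 probes reached up to -0.082. Thrombospondin-1, a secreted ligand of CD47 encoded by *Thbs1*, was not detected. In a list of 12 ligands, receptors and prophagocytic partners, 11 were on the arrays and 8 were detected, of which 5 were higher and 3 lower in B16F1-GFP-D on both arrays. *Calr*, encoding calreticulin, a chaperone that acts as a signal for engulfment when exposed at the cell surface, had 1.31 and 0.92 with a mean of 1.12, and so was past 2-fold on array 1 only. *Lrp1*, a receptor for calreticulin, had 0.86 and 0.92, and its second probe, which was not detected, had a mean of 0.12. The list's median was 0.21, beside -0.0082 over all detected genes. Of all detected genes, 41.0% were higher and 42.8% lower on both arrays, which is the background for the later lists too.

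*Nt5e* was read by 2 probes on chromosome 9, from 88266616 to 88266675 and from 88264041 to 88265007, and neither was well above background in any channel. Their signals were between 1.13 and 2.05 times the background. The log2 ratios were -0.068 and 0.22 for the first and -0.11 and -0.048 for the second, and no difference was detectable at these signals. *Entpd1*, whose product CD39 supplies AMP to CD73, and the adenosine receptor *Adora2b* were not detected either. The receptor *Adora2a* was detected in both lines, with log2 ratios of -0.14 and 0.013. Of 18 genes for extracellular ATP and adenosine, 12 were detected, 9 of them higher and 2 lower on both arrays, with a median of 0.20. Of all detected genes, 41.0% were higher on both arrays. *Adk*, encoding adenosine kinase, which converts adenosine back to AMP inside the cell, was called higher with 1.13 and 1.23, or 2.26-fold. This call rests on 1 probe.

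The secreted factors *Tgfb1*, *Il10*, *Csf1* and *Csf2* were each printed in 10 spots per array, which gives their spread within an array. *Tgfb1*, on chromosome 7 from 26489877 to 26489936, was 10.4 to 13.4 times as bright as the background over the 4 channels. On array 1 the log2 ratios of its 8 spots without an outlier flag lay between -0.23 and -0.089, with a median of -0.15. On array 2 the 10 spots lay between -0.25 and -0.12, with a median of -0.18. Every spot was below 0 on both arrays, and the mean was -0.16 ± 0.015 (SD of 2 arrays), or 1.12-fold lower in B16F1-GFP-D. The SD between the spots was 0.056 on array 1 and 0.039 on array 2, but all of them read the same RNA and are not replicates. The value is close to the pooled SD of 0.15 of 3186 probes of similar brightness, and 67.6% of the detected genes had a mean further from 0.

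Of 26 genes for TGF-β ligands, activation, receptors and signalling, 25 were on the arrays and 18 were detected, all in both lines. Here 3 were higher and 10 lower in B16F1-GFP-D on each array, and the median was -0.11. *Ltbp4*, which encodes a protein that binds latent TGF-β in the matrix, was called lower with -1.07 and -1.01, or 2.06-fold. It was read by 1 probe only. The receptors *Tgfbr1* and *Tgfbr2* were detected, with means of -0.069 and 0.021. The arrays disagreed for *Tgfbr1*, with -0.43 and 0.29.

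*Csf1*, on the reverse strand of chromosome 3 from 107544333 to 107544392, was 6.52 to 8.26 times as bright as the background and detected in both lines on both arrays. Its 10 spots on array 1 had log2 ratios between -0.093 and 0.062, and the 9 kept on array 2 between -0.088 and -0.019. The mean was -0.033 ± 0.016 (SD of 2 arrays), within the pooled SD of 0.14 of probes of similar brightness, and it was 0.0018 with median centring. *Csf2*, on the reverse strand of chromosome 11, was not detected. In B16F1-GFP-M, 6 of its 10 spots were well above background on array 1 and none of 9 on array 2. In B16F1-GFP-D, none of 10 were so on array 1 and 2 of 9 on array 2. The log2 ratios were 0.015 and 0.029. The files place this probe over 28 bases of mm9 only, from 54060772 to 54060799.

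The receptors *Csf1r* and *Csf2rb* were not detected. *Csf2ra*, the α-chain of the GM-CSF receptor, was detected with -1.07 and -0.42, so that its arrays differed by an SD of 0.46. In a list of 11 genes for other colony-stimulating factors, related growth factors and receptors, only *Csf2ra* and *Flt3l* were detected. *Flt3l*, a growth factor for dendritic cells, was called lower with -1.49 and -1.41, or 2.73-fold. Its second probe had a mean of -0.31, and with the median of the probes, -0.88, it was no longer called.

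*Il10*, on chromosome 1 from 132920943 to 132921002, was not well above background in any spot of either line. Its signals were between 1.16 and 2.13 times the background. On array 1 the 9 kept spots had a median log2 ratio of 0.12 and on array 2 the 10 spots had -0.099, so the sign changed with the dyes. The scanner software's own ratio had a mean of 0.49 for this probe. Of the receptor chains, *Il10rb* was detected in both lines, with a mean of 0.12 ± 0.11 (SD of 2 arrays), and *Il10ra*, the ligand-binding chain, was not. Of 11 genes for IL-10 receptors and signalling, 7 were detected, 5 of them higher and 2 lower on both arrays, with a median of 0.12. *Nfil3*, which encodes a basic leucine zipper transcription factor, was called lower with -1.95 and -1.61, or 3.43-fold. A second probe gave a mean of -1.71.

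None of the 5 detected genes was at least 2-fold higher or lower on each array, and the 5 that were not detected could not be called. Among all detected genes, 3.09% were called higher and 1.94% lower by this rule, together 5.02%, and 0 of 5 detected genes is close to that background. At 1.5-fold, which 15.8% of the detected genes passed, none of the 5 was past the threshold either. The 5 detected genes were all below 0 on both arrays, as were 42.8% of all detected genes, and *Csf1* moved above 0 with median centring. The median of their sizes was 0.16, beside 0.28 over all detected genes.

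**Figure D3:**
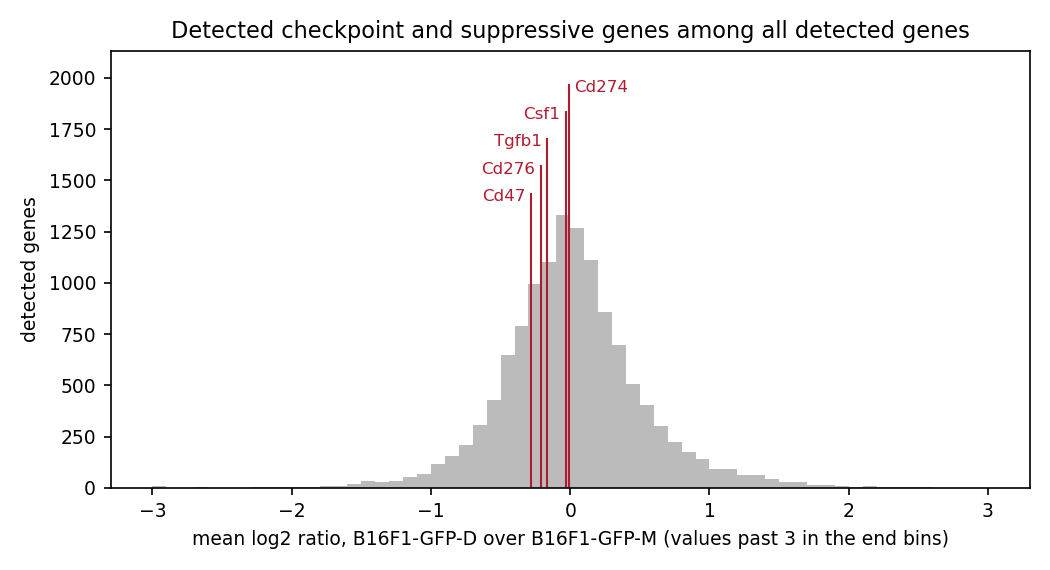
Number of detected genes (vertical axis) by mean log2 ratio (B16F1-GFP-D divided by B16F1-GFP-M), in bins over all 12539 detected genes, with red lines at the 5 detected checkpoint and suppressive genes. The red lines lie between -0.28 for *Cd47* and -0.011 for *Cd274*, inside the bulk of the distribution.

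The genes around the B7 ligands were compared in the same way. A list of 17 further genes held B7 and nectin ligands, regulators of checkpoint ligands, and other ligands and receptors that act on immune cells. Of these, 11 were detected, of which 7 were higher and 2 lower in B16F1-GFP-D on each array. Among all detected genes, 41.0% were higher and 42.8% lower on both arrays. The median of the 11 was 0.39, but 0.18 with the median of the probes. With array 1 alone the list's median was 0.14. That setting also counted *Btla* and *Tnfrsf14*, at -0.12 and -0.16 there, which are not among the 11. None of the 11 was called. *Cmtm4*, which encodes a membrane protein that stabilises PD-L1, had 0.79 and 0.84, and a second probe gave 0.90 on average. Its relative *Cmtm6*, in the same list, went the other way, with -0.40 and -0.45 from 1 probe. *Nectin2*, whose product binds the receptors TIGIT and DNAM-1, had 0.54 and 0.89, but only 0.092 with its second probe. *Pvr*, also in this list, was lower with -0.71 and -0.24, while the means of its 5 detected probes ranged from -0.47 to 0.57. Of 9 T-cell checkpoint and costimulatory receptors on the arrays only *Havcr2*, encoding TIM-3, was detected, with 0.058 and -0.069, while *Pdcd1*, *Ctla4* and *Cd28* were not.

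Genes of the route that induces *Cd274* were examined next. Of 15 genes of interferon-γ, JAK-STAT and NF-κB signalling, 14 were detected, all but the cytokine *Ifng* itself. Of these, 6 were higher and 4 lower on both arrays and 4 had opposite signs, with a median of -0.0014 and no calls. The NF-κB subunit *Rela* had -0.32 and -0.52 and the receptor chain *Ifngr2* had 0.32 and 0.40. Their other probes gave means of -0.078 for *Rela* and 0.75 for *Ifngr2*, so that the probes of each gene differed in size.

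Other secreted or metabolic suppressive factors were mostly undetected, with 7 of 26 above the limit and a median of 0.12. *Lgals3*, encoding galectin-3, a lectin that binds β-galactosides, was called higher with 2.34 and 2.37 from 1 probe. This was 5.10-fold, with an SD of 0.023 between the arrays on the log2 scale. Over the 9 lists, 143 genes other than the 10 were on the arrays and 80 were detected, of which 2 were called higher and 3 lower. These 5 are 6.25% of the 80, close to the 5.02% of all detected genes.

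**Figure D4:**
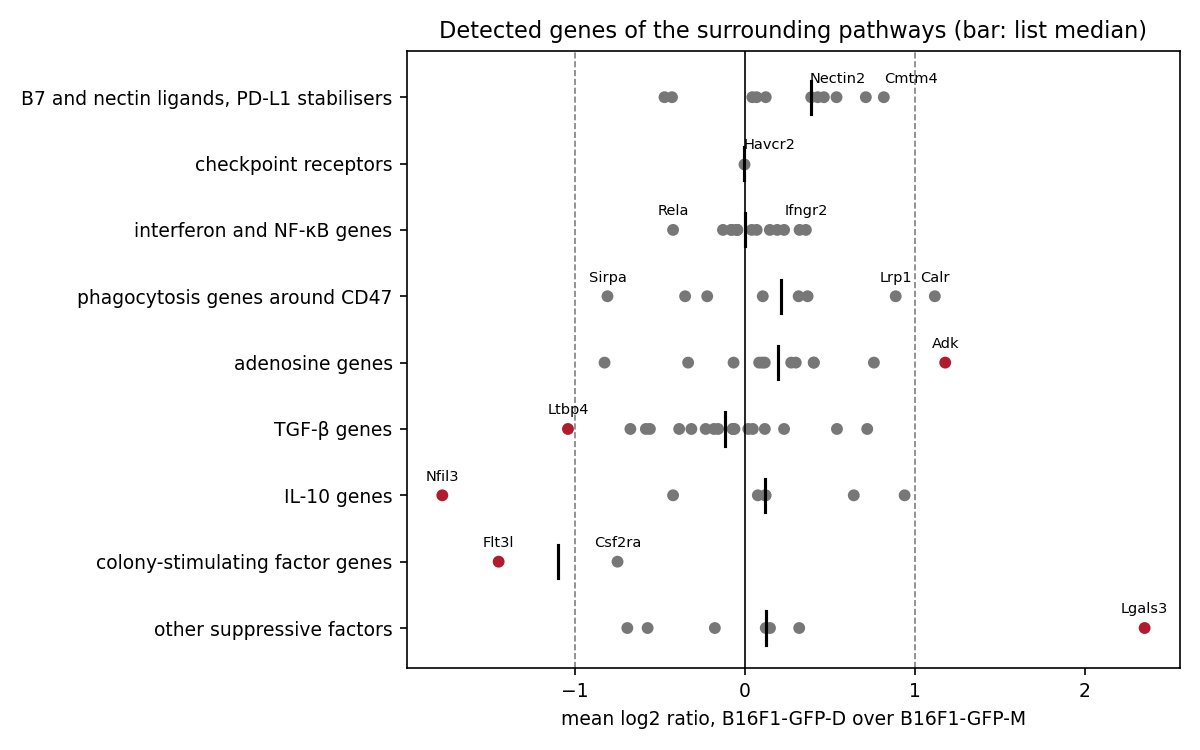
Mean log2 ratio (horizontal axis, B16F1-GFP-D divided by B16F1-GFP-M) of each detected gene in the 9 surrounding lists, with black bars at the list medians, dashed lines at 2-fold, and red points for genes past 2-fold on each array. *Lgals3* and *Adk* are red on the right and *Nfil3*, *Flt3l* and *Ltbp4* on the left.

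**Figure D5:**
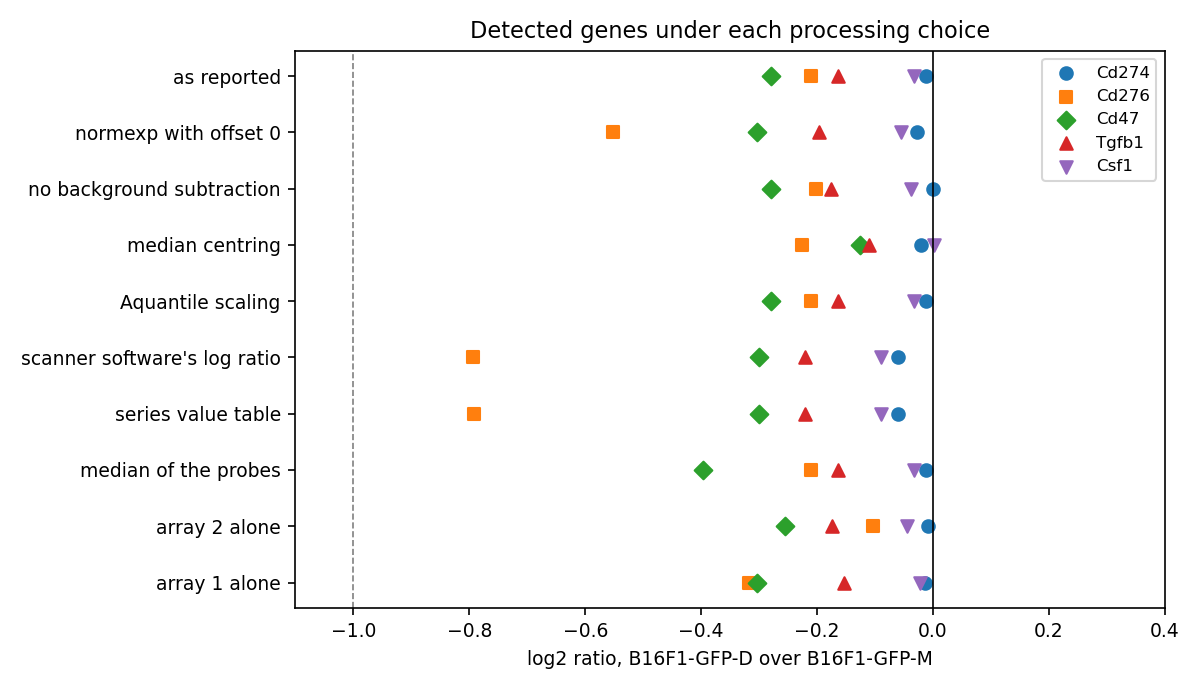
Log2 ratio of the 5 detected genes (horizontal axis) under each processing choice (rows). *Cd47*, *Tgfb1* and *Cd276* stay left of 0 in every row, *Cd276* moves to -0.79 with the scanner software's ratio, and no point reaches the dashed line at 2-fold.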

How the data were processed

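The intensity of each spot and its local background was deposited without normalization, as the authors obtained it with Agilent Feature Extraction 10.7.3.1. The deposited log10 ratios of Cy5 over Cy3 were computed by that software after background subtraction and dye scaling, and a value table of the whole series repeats them in rounded form. The deposited p-value belongs to the error model of a single spot. The normalization behind the study's own comparison was not given in the sources used here.

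Here, 43379 spots that are not controls were used, without 143 outlier spots on array 1 and 176 on array 2. Mean signals were corrected for median local background by normexp (offset 50) and normalized by loess (span 0.3) within each array in R 4.3.3 with limma 3.58.1. Spots were averaged into 41164 probes. Symbols came from the RefSeq accessions of the probes, 27198 of which matched the GRCm38.p6 table, used for names only. Probes without a match kept the gene name of the array files, among them the *Cd47* and *Cd80* probes assigned to an Ensembl transcript. Probe positions were copied from the array files and refer to mm9, and whether a probe lies in a coding or untranslated part was not determined. Detected genes with log2 ratios of 1 or more, or of -1 or less, on array 1 and array 2 alike were called. The rule concerns size and involves no test. The 10 genes and all lists were chosen with earlier results of these data known. Besides the 10, the text names the called genes of each list or, where there were none, the 2 largest, and 15 receptors, ligands and enzymes that act with the 10 gene products, of which 6 were detected. *Cmtm6*, *Pvr*, *Btla*, *Tnfrsf14*, the cytokine *Ifng* and some cell type markers are named in addition. The procedure was tested on simulated arrays, in which only brighter probes were changed, by 3-fold or more. That test does not cover small differences or signals near background. Figures were made with Python 3.11.15 and matplotlib 3.10.9. The brain-derived B16F1-GFP-DB line was not analysed here.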

Additional observations from a re-analysis of the deposited data

How the results depend on the processing

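None of the 10 genes was called under any of the 14 alternatives, and *Cd274*, *Cd276*, *Cd47* and *Tgfb1* stayed below 0 in all 9 that give a ratio. Several of these outcomes were fixed in advance. Stricter thresholds and filters can only remove calls. Aquantile scaling leaves ratios unchanged, and the series value table repeats the software's ratio. A gene with 1 probe keeps its value with the median of the probes. Where the detection filter was kept, undetected genes could not be called. Over the 9 alternatives, *Cd47* lay between -0.40 with the median of its probes and -0.13 with median centring. *Tgfb1* lay between -0.22 and -0.11, *Cd274* between -0.060 and -0.00071, and *Csf1* between -0.089 and 0.0018. Detection depended on the array, with 6 of the 10 genes on array 2 alone and 8 on array 1 alone, where *Cd80*, *Pdcd1lg2* and *Csf2* were added. With no filter all 10 count as measured, by construction, and in both lines on both arrays 4 were detected, without *Cd276*. Over all genes, 387 were called higher and 243 lower. These were 635 and 442 with an offset of 0, 758 and 597 with the software's ratio, 757 and 594 with its rounded copy in the series value table, and 45 and 19 with median centring, the causes of which were not tested. By construction of the threshold, they were 1100 and 880 at 1.5-fold and 74 and 49 at 3-fold. With 1 array alone, 475 to 517 were called higher and 303 to 323 lower. *Adk*, *Lgals3*, *Ltbp4*, *Nfil3* and *Flt3l* kept the sign of their mean in all 9. With median centring only *Lgals3* was still called, and *Ltbp4* had a mean of -0.91. With the median of the probes *Flt3l* was not called, at -0.88, and at 3-fold *Nfil3* and *Lgals3* were. No paired analysis was possible because a line has no second replicate. Signals near the local background limit what can be read for *Cd80*, *Csf2*, *Il10*, *Nt5e* and *Pdcd1lg2*.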
